A study of Mus musculus with 6 samples.

Results

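The mitochondrial genome of the mouse carries 37 genes, and all 37 were present among the 54532 gene rows of the count table. They were taken by symbol, as every row whose GENCODE M21 name starts with mt- in lower case: 13 encode proteins, 2 encode the ribosomal RNAs of the organelle and 22 encode its transfer RNAs. Their transcripts were counted in 6 subcutaneous tumours of G422, a mouse glioblastoma line, grown in Kunming mice. In 3 tumours the cells carried shNgb, a short hairpin named for the oxygen-binding globin neuroglobin, and in the other 3 they carried the vector control shVec. Both groups had been infected with lentivirus and were otherwise untreated. The design text of the series says that cells received Ngb rather than a hairpin against it, so the group names below are the labels. The tumours are described as independent, while the cell line field of the labels carries a running number across them. Neither the hairpin sequence nor the age of the mice is stated, nor whether a line was 1 clone or each tumour had its own host. Every p-value below therefore sets the group difference against tumour-to-tumour spread only.

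Mitochondrial DNA is transcribed from both strands into long precursors that run through most of the circle. Transfer RNAs lie between the messenger and ribosomal RNAs, and cutting them out releases the RNAs on either side. The 13 proteins are core subunits of the respiratory chain: NADH dehydrogenase (complex I), cytochrome b of complex III, cytochrome c oxidase (complex IV) and ATP synthase (complex V). All other subunits are made from nuclear genes. Pieces of mitochondrial DNA have also been inserted into nuclear chromosomes in the course of evolution, and young insertions are nearly identical to the genes they came from.

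The libraries held 19630319 to 25620667 counted reads. Ngb had 18, 19 and 11 reads in the shNgb libraries, against 28, 23 and 13 in the shVec libraries. These ranges met, the log2 fold change was -0.59 (95% interval -1.55 to 0.37), and a knockdown was therefore not detected in these tumours. Of 15 glioma and neural markers 13 had reads and 2, Olig2 and Aqp4, had none in any library. Of the others, Vim averaged 4844 and 4909 CPM (counts scaled to TMM-adjusted library size) in shNgb and shVec tumours, Cspg4 278 and 305, and Pdgfra 57.7 and 43.3. Cd44 averaged 262 and 275, Sox2 17.3 and 18.6, Aldh1l1 3.67 and 5.01, and Msi1 2.70 and 5.40. Other markers of this list were near 0 and too low for the test: Gfap averaged 0.149 and 0.084, S100b 0.184 and 0.148, and Fabp7 0.122 and 0.032. Likewise Slc1a3 averaged 0.109 and 0.030, and Sox10 0.084 and 0.047. Nes averaged 414 and 506 and was lower in every shNgb tumour (log2 fold change -0.29, edgeR unadjusted p = 0.0065, adjusted p = 0.9997). It was the 1 tested marker of this list without overlap, where the share over all genes was 3.43% lower. By sign 7 of the 8 tested markers of this list were lower in shNgb, and their median log2 fold change was -0.12, beside 0.00 over all genes. Summed macrophage markers (10 of 10 genes with reads) stood at 117 to 294 CPM in shNgb tumours and 96.0 to 190.2 in shVec tumours, and T and NK cell markers (10 of 10) at 3.66 to 34.3 and 3.46 to 15.8. Log2 fold changes were positive in 9 of 9 tested macrophage markers, with a median of 0.56, and in 7 of 7 tested T and NK cell markers, with a median of 1.12. Fibroblast markers (8 of 8) stood at 1167 to 2484 and 1774 to 2087, a sum in which Col3a1 averaged 1262 and 1468 CPM. Col1a1 averaged 281 and 155 and was higher in every shNgb tumour (edgeR unadjusted p = 0.0076), and Col1a2 averaged 176 and 90.5 with overlap (edgeR unadjusted p = 0.0185). Of the 7 tested fibroblast markers 6 were positive and 1 negative, with a median log2 fold change of 0.09. Col1a1 was the 1 of them higher without overlap, where the share over all genes was 3.67%. No marker was called by edgeR after adjustment. Skeletal muscle markers (14 of 14) stood at 22.4 to 28.7 and 22.3 to 46.5, a sum in which Eno3 averaged 18.1 and 18.0 CPM. Of the 6 tested muscle markers 1 was positive and 5 negative, with a median log2 fold change of -0.63. Atp2a1 averaged 0.357 and 1.15 CPM with overlap (edgeR unadjusted p = 0.0261). It was the 1 of them lower at an unadjusted p under 0.05, where the share over all genes was 1.22%. The part of these cells in the values below was not tested, and in whole tumours fewer cells of a type and less RNA per cell cannot be told apart.

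The 13 messenger RNAs and 2 ribosomal RNAs spanned a wide range of levels. On a scale of CPM divided by gene length in kilobases, mt-Co1, the catalytic subunit of complex IV, averaged 4694 over the 6 tumours and alone took 53.1% of all mitochondrial reads. mt-Cytb, the cytochrome b of complex III, followed at 2205 and mt-Nd1, a membrane subunit of complex I, at 1209. Then came further complex I subunits, mt-Nd2 at 613, mt-Nd4 at 612, mt-Nd5 at 410 and mt-Nd6 at 287. The ribosomal RNAs mt-Rnr2 and mt-Rnr1 stood at 90.1 and 68.6. The remaining messengers were far lower: mt-Co2 at 44.3, mt-Atp6 at 25.7, mt-Co3 at 16.9, mt-Nd4l at 6.83, mt-Atp8 at 4.28 and mt-Nd3 at 3.04 CPM per kilobase. Each gene exceeded the next in this order in all 6 tumours at most steps. The exceptions were mt-Nd2 over mt-Nd4 (2 tumours), mt-Atp6 over mt-Co3 (5), mt-Nd4l over mt-Atp8 (4) and mt-Atp8 over mt-Nd3 (4), so these neighbours are not ordered beyond their spread.

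**Figure D1:**
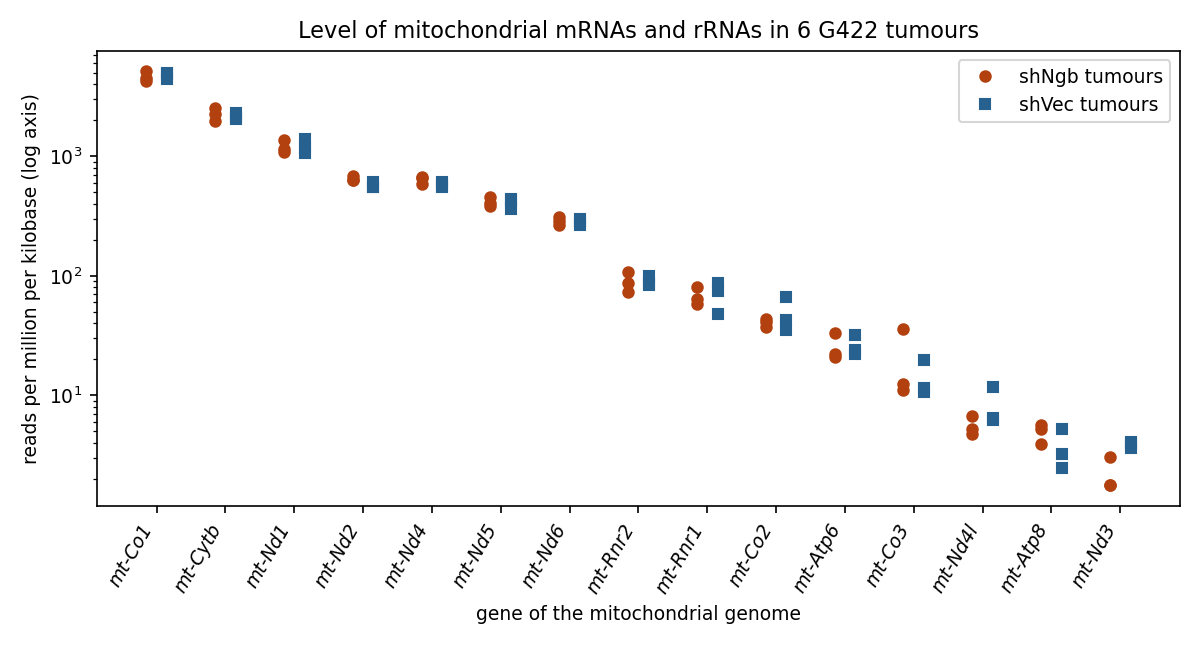
Level of the 15 messenger and ribosomal RNA genes of the mitochondrial genome in each tumour, in CPM per kilobase on a log axis, with genes ordered by their mean over 6 tumours. Circles are shNgb and squares are shVec tumours; mt-Co1 averages 4694 and mt-Nd3 averages 3.04, and the points of both groups lie close together within most genes.

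Of the 6 low messengers, 5 have nearly identical nuclear copies. Among annotated transcripts of GENCODE M21, 11 nuclear genes aligned to a mitochondrial gene at 95% identity or more over at least 50 bases. Of these, 7 lie side by side on chromosome 1, at chr1:24611535-24616197 (build GRCm38, minus strand), and match chrM:6390-11042. They follow the order of the mitochondrial genes from the end of mt-Co1 to mt-Nd4. The distances between them also matched: of 6 gaps or overlaps, 5 had the same length on both chromosomes and the sixth, between Gm28438 and Gm10222, was 74 bases on chromosome 1 and 73 in the mitochondrial genome. Gm28661 equalled 681 of the 684 bases of mt-Co2 without a mismatch, Gm10925 equalled 678 bases of mt-Atp6, Gm28437 783 bases of mt-Co3, Gm10222 294 bases of mt-Nd4l and Gm28439 876 of the 1378 bases of mt-Nd4. Gm28438 differed from mt-Nd3 by 1 base in 345, and Gm29216 from the last 483 bases of mt-Co1 by 1 base.

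Stretches of 60 bases show how little there is to tell some of these pairs apart. The first 60 bases of mt-Co2 (chrM:7013-7072, plus strand) and of Gm28661 (chr1:24615506-24615565, minus strand) are the same, from GENCODE M21 transcripts.
mt-Co2: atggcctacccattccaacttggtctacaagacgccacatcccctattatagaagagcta
Gm28661: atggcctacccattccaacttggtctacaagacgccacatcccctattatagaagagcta
The start of mt-Nd3 (chrM:9459-9518, plus strand) and of Gm28438 (chr1:24613060-24613119, minus strand) holds the sole mismatch of that pair, in capitals.
mt-Nd3: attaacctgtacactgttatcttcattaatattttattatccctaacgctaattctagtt
Gm28438: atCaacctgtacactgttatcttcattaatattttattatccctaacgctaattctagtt
In mt-Co1 a stretch (chrM:6390-6449, plus strand) is shared with Gm29216 (chr1:24616129-24616188, minus strand) and with Gm13340 (chr2:22588526-22588585, minus strand), a copy that runs the whole length of the gene at 97.6% identity. Capitals mark bases that differ from mt-Co1.
mt-Co1: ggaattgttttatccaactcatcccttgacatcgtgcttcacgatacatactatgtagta
Gm29216: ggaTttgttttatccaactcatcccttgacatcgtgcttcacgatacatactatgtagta
Gm13340: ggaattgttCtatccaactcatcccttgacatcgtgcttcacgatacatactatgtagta

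The share of each gene that is repeated in the nucleus was set beside its level. A window of 50 bases was called shared when the same letters, on either strand, occur in any annotated nuclear transcript, including less similar genes that hold a short exact match. In 5 messengers 97.99% to 100% of windows were shared (mt-Co2, mt-Atp6, mt-Co3, mt-Nd3 and mt-Nd4l), and their levels ran from 3.04 to 44.3 CPM per kilobase. In mt-Nd4 62.2%, in mt-Co1 51.1%, in mt-Nd2 8.19% and in mt-Nd5 7.61% of windows were shared, and their levels ran from 410 to 4694. In mt-Nd1, mt-Nd6 and mt-Cytb no window was shared, and levels ran from 287 to 2205. mt-Atp8 stands apart, at 4.28 with no shared window. It lies between the parts of the mitochondrial genome matched by Gm28661 and Gm10925, which are 233 bases apart on both chromosomes, and the nuclear sequence of that gap was not analysed here. The sources used here do not say how reads with several matches were counted, and the part of such reads in these levels was not tested. Reads from a gene and from an identical copy cannot be told apart.

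**Figure D2:**
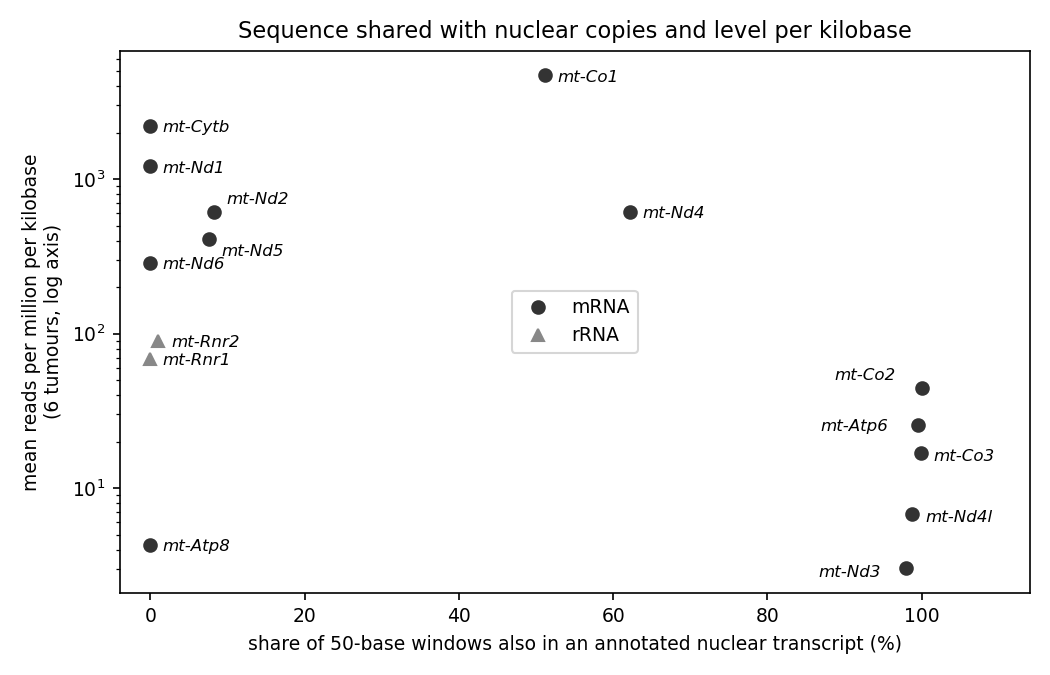
Mean level of each messenger (circles) and ribosomal RNA (triangles) over 6 tumours, in CPM per kilobase on a log axis, against the percent of its 50-base windows that also occur in an annotated nuclear transcript. The 5 genes with at least 97.99% of windows shared lie at 44.3 or below, and mt-Atp8 is the low gene with no shared window.

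The nuclear copies themselves had reads. Gm28438 had 712, 1038 and 993 reads in shNgb tumours and 787, 786 and 880 in shVec tumours, where mt-Nd3, its mitochondrial match, had 22, 15 and 16 and 30, 28 and 25. Over the 6 libraries the copy thus held 38.2 reads for each read of mt-Nd3. Gm10222 held 3.30 reads per read of mt-Nd4l, Gm28437 1.105 per read of mt-Co3, Gm10925 1.07 per read of mt-Atp6 and Gm28661 0.431 per read of mt-Co2. Gm28439 and Gm29216 were minor beside mt-Nd4 and mt-Co1, at 559 and 1032 reads in all against 111990 and 957004. Of the copies on chromosome 2, Gm13340 had 217 reads and Gm13341, a copy of mt-Co2, had 233, while Gm13339 (4 reads) and Gm4076 on chromosome 13 (2 reads) were all but silent. With the reads of all copies added, mt-Nd3 reached 115.8 CPM per kilobase, mt-Co2 65.8, mt-Atp6 53.3, mt-Co3 36.3 and mt-Nd4l 29.0, which is still below mt-Nd6.

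**Figure D3:**
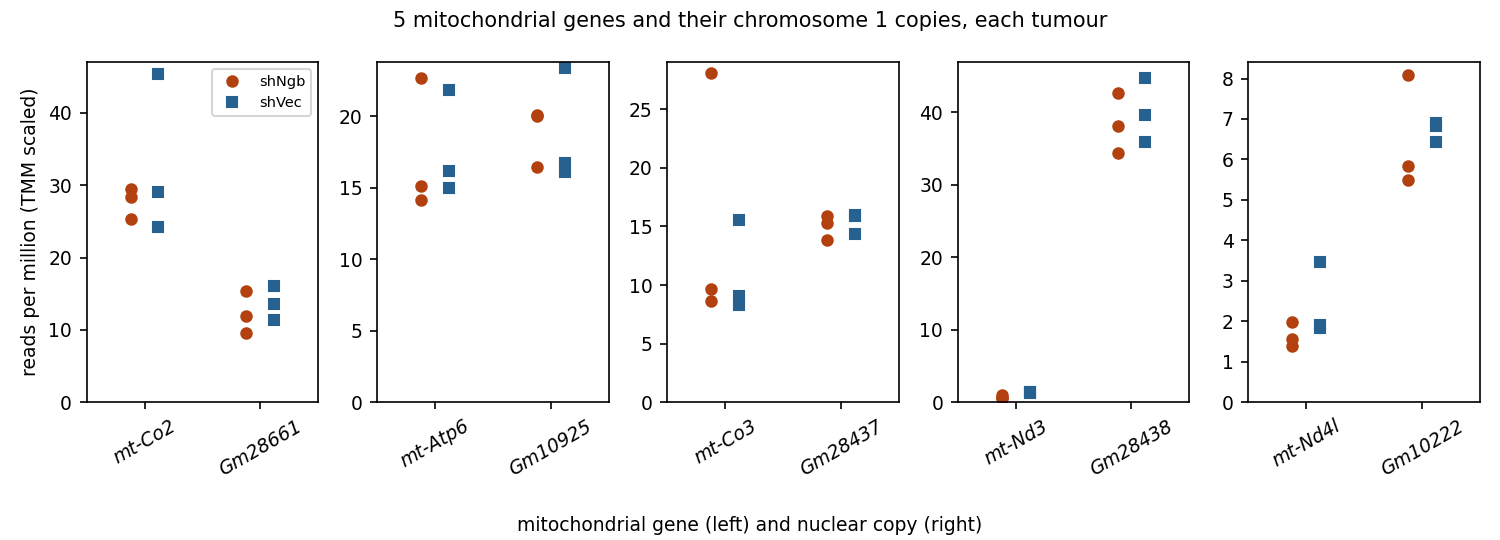
CPM (TMM scaled) of 5 mitochondrial genes and of their copies on chromosome 1, with circles for shNgb and squares for shVec tumours; each panel has its own axis from 0. mt-Nd3 is close to 0 in every tumour while Gm28438 lies between 34.3 and 44.8, and mt-Co3 has a single high shNgb tumour at 28.1.

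Between shNgb and shVec tumours no mitochondrial gene passed the test across all genes. The default expression filter, which keeps a gene with enough reads in at least 3 libraries, left 22 of the 37 members in the test: the 13 messengers, the 2 ribosomal RNAs and 7 transfer RNAs. edgeR called 0 of these 22 at an adjusted p under 0.05, against 0% of the 15203 genes tested, and limma-voom and DESeq2 also called 0. At an unadjusted p under 0.05 edgeR had 1 member higher in shNgb, mt-Nd2, where the share over all genes was 1.35%, and 1 lower, mt-Nd3, where it was 1.22%. In either direction the share over all genes was 2.58%. Among the 22, mt-Nd2 and mt-Nd3 were also the members whose groups did not overlap, against 3.67% of all genes higher and 3.43% lower without overlap, or 7.1% in either direction. Log2 fold changes were positive in 13 members and negative in 9, with a median of 0.03, beside 0.00 over all genes tested.

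Complex I has 7 mitochondrial subunits. mt-Nd2 stood at 662, 711 and 663 CPM in shNgb tumours, against 575, 636 and 570 in shVec tumours. Every shNgb value exceeded every shVec value, with a log2 fold change of 0.19 (95% interval 0.03 to 0.36; edgeR unadjusted p = 0.0274, adjusted p = 0.9997). mt-Nd4 stood at 929, 913 and 812, against 796, 847 and 767, so that the lowest shNgb tumour fell among the shVec tumours, and its log2 fold change was 0.14 (interval -0.04 to 0.32). The groups also met in mt-Nd1 (1155 ± 136 and 1158 ± 172 CPM, SD, n = 3 each), mt-Nd5 (755 ± 65.0 and 740 ± 71.9) and mt-Nd6 (150.3 ± 11.7 and 147.1 ± 9.30). Their log2 fold changes were 0.00, 0.03 and 0.03.

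mt-Nd3 and mt-Nd4l, small membrane subunits of complex I, rested on few reads. mt-Nd3 stood at 1.06, 0.617 and 0.613 CPM in shNgb tumours, against 1.37, 1.41 and 1.27 in shVec tumours. The shNgb tumours were all lower, with a log2 fold change of -0.83 (interval -1.62 to -0.03; edgeR unadjusted p = 0.0426, adjusted p = 0.9997). With the reads of Gm28438 added, the same gene stood at 35.4, 43.3 and 38.7, against 37.2, 41.0 and 46.1, and the groups overlapped. The log2 fold change was then -0.08 (interval -0.34 to 0.18; edgeR adjusted p = 0.9997). mt-Nd4l averaged 1.65 ± 0.31 CPM in shNgb and 2.41 ± 0.93 in shVec (SD, n = 3), with a log2 fold change of -0.54. The sum with Gm10222, which had 879 reads against 266 of mt-Nd4l, had a log2 fold change of -0.16.

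mt-Cytb, the only mitochondrial subunit of complex III, stood at 2589, 2886 and 2241 CPM in shNgb tumours, against 2331, 2637 and 2450 in shVec tumours. The highest and the lowest tumour both carried shNgb, and the log2 fold change was 0.06 (interval -0.17 to 0.28). In complex IV, mt-Co1 stood at 7924, 6948 and 6529, against 7595, 7665 and 6851. These ranges met as well, at a log2 fold change of -0.05 (interval -0.25 to 0.15). With 957004 reads, mt-Co1 had the best counting precision of the members, so its interval reflects the spread between tumours.

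The counts of the other subunits of complex IV varied more from tumour to tumour. mt-Co2, which receives electrons from cytochrome c, stood at 28.4, 29.5 and 25.3 CPM in shNgb tumours, against 29.1, 45.3 and 24.2 in shVec tumours. shVec replicate 2 alone was high; the log2 fold change of -0.25 (interval -0.75 to 0.26) became 0.06 without that tumour. mt-Co3 stood at 8.68, 9.67 and 28.1, against 9.07, 15.6 and 8.30. Here shNgb replicate 3 stood apart, and the log2 fold change of 0.50 (interval -0.72 to 1.72) became -0.26 without it. The copy Gm28437 did not share this peak: it stood at 15.3, 15.9 and 13.8, against 14.4, 15.97 and 15.9. With the reads of nuclear copies added, log2 fold changes were -0.20 for mt-Co2 and 0.21 for mt-Co3. In that sum mt-Co3 stood at 41.9 CPM in shNgb replicate 3, against 23.4 to 31.5 in the other tumours. Both genes are nearly identical to their copies, and the part of read assignment in this variation was not tested.

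Both mitochondrial subunits of ATP synthase lie in the proton channel part of the enzyme and share a stretch of sequence. mt-Atp6 stood at 14.1, 15.1 and 22.7 CPM in shNgb tumours, against 16.2, 21.8 and 14.97 in shVec tumours, with 1 high tumour in each group. mt-Atp8 had 11 to 28 reads per library and averaged 1.01 ± 0.18 in shNgb and 0.742 ± 0.294 in shVec (SD, n = 3). Log2 fold changes were -0.03 (interval -0.52 to 0.47) and 0.44 (interval -0.46 to 1.34). The last 43 bases of mt-Atp8 are also the first 43 of mt-Atp6, and reads within them belong to neither gene alone. Both are shown with the overlap in capitals (chrM:7917-7969, plus strand), together with the overlap of mt-Nd5 and mt-Nd6 (chrM:13542-13565, plus strand), which are read from opposite strands.
mt-Atp8 end: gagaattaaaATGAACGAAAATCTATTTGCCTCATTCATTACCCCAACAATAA
mt-Nd5 end: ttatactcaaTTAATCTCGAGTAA
The library kit does not mark strand, so reads of mt-Nd6 and reads of the opposite strand over its 519 bases cannot be told apart.

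**Figure D4:**
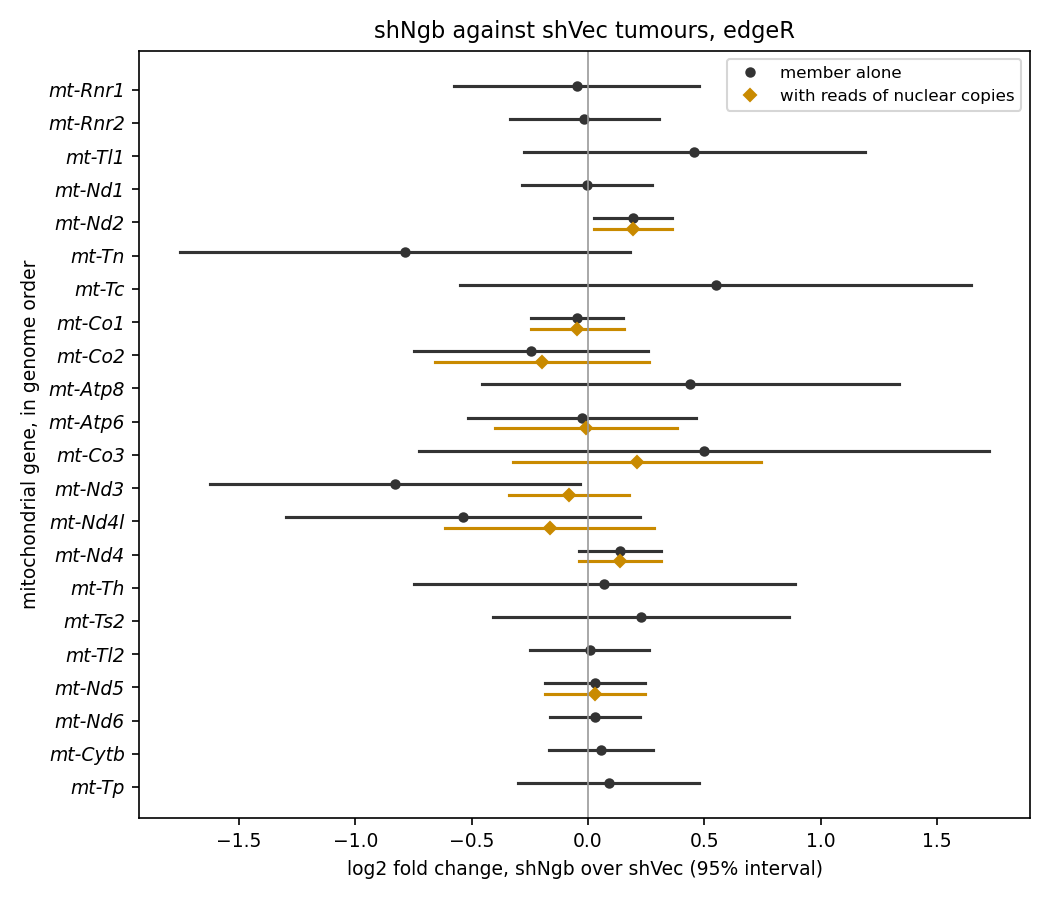
Log2 fold change of the 22 tested mitochondrial genes, shNgb over shVec, with the 95% interval from edgeR (circles), and for genes with nuclear copies also after the reads of the copies were added (diamonds). The interval of mt-Nd3 lies below 0 alone, at -0.83, and spans 0 with its copy, at -0.08, where the copy supplies most reads. That of mt-Nd2 lies above 0 in both, but its copy adds only 4 reads to 84761 and could not move it.

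No share of the mitochondrial reads passed its test between the groups. Mitochondrial reads were 1.46%, 1.39% and 1.28% of the shNgb libraries, against 1.36%, 1.41% and 1.27% of the shVec libraries (two-sided exact permutation p = 0.7). In this family of 9 values, 3 tumours against 3 cannot give a p under 0.1. Complex IV messengers took 55.07%, 52.0% and 53.6% of mitochondrial messenger reads in shNgb tumours, against 56.0%, 55.5% and 55.07% in shVec tumours. All shNgb values were lower, though the nearest pair was almost equal (exact permutation p = 0.1, the smallest possible; 0.9 after Benjamini-Hochberg adjustment over the 9 values). With the reads of nuclear copies added, the exact permutation p was 0.2. Complex I messengers took 26.9%, 26.5% and 27.9%, against 26.7%, 25.4% and 25.2%, with 1 shVec tumour inside the shNgb range (exact permutation p = 0.2). Complex III took 19.2% ± 1.96 and 18.5% ± 1.29, complex V 0.139% ± 0.046 and 0.137% ± 0.021, and mt-Nd6 1.12% ± 0.01 and 1.10% ± 0.04 (SD, n = 3 each). Exact permutation p-values of these 3 shares were 0.7, 1.0 and 0.5. Since mt-Co1 dominates complex IV and most complex V reads have nuclear matches, these shares describe counted reads and not the balance of the complexes.

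**Figure D5:**
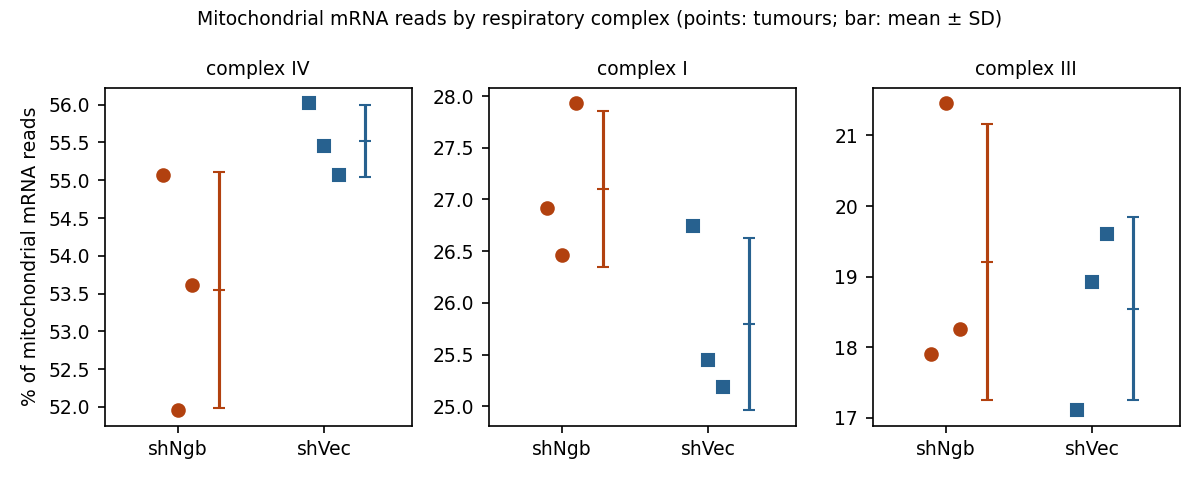
Percent of mitochondrial messenger reads in the genes of complex IV, complex I and complex III, with 1 point per tumour and a bar for the mean ± SD (n = 3 per group); axes do not start at 0. shNgb tumours lie at 52.0% to 55.07% in complex IV, against 55.07% to 56.0% in shVec tumours.

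Ribosomal and transfer RNAs made up a small part of these libraries. The small ribosomal subunit RNA, mt-Rnr1, stood at 77.0, 55.2 and 61.2 CPM in shNgb tumours, against 82.7, 71.2 and 45.8 in shVec tumours. The large subunit RNA, mt-Rnr2, stood at 171.1, 115.5 and 139.0, against 138.6, 157.8 and 133.3. Both pairs of groups met, with log2 fold changes of -0.05 and -0.01. Together the ribosomal RNAs were 1.51% ± 0.23 of mitochondrial reads in shNgb and 1.54% ± 0.11 in shVec (SD, n = 3; exact permutation p = 0.9). In cells they are the most abundant mitochondrial transcripts, while the kit named in the labels selects RNA with poly(A) tails, so their level here is no measure of their amount.

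Among the 22 transfer RNA genes, 6 had no read in any library and 6 more had 10 reads or fewer in all. The 5 that lie within the stretch matched by the chromosome 1 copies (mt-Ts1, mt-Td, mt-Tk, mt-Tg and mt-Tr) had 0 to 2 reads. The 17 elsewhere had 0 to 2865, with a median of 21.0. Low counts were not particular to the stretch: mt-Tf, mt-Ta and mt-Tt, outside it, also had no read, and mt-Tv and mt-Tq had 2 each. In the 5 inside, 0% of windows were shared with an annotated nuclear transcript. They lie almost wholly in the gaps between the annotated copies, and the nuclear sequence of those gaps was not analysed here. The 0% therefore does not tell whether these 5 have nuclear copies. mt-Tp, the proline tRNA at the border of the control region, and mt-Tl2, a leucine tRNA just before mt-Nd5, had 2865 and 2524 reads. Per kilobase they stood at 321 and 268 CPM, near the 287 of mt-Nd6. mt-Tp stood at 23.1, 17.2 and 26.2 CPM in shNgb tumours, against 22.1, 22.7 and 17.7 in shVec tumours. mt-Tl2 stood at 19.2, 19.0 and 19.2, against 18.0, 18.3 and 20.7, and was the steadiest member, with a coefficient of variation of 4.85% over the 6 tumours. The next by reads were mt-Ts2 (522, serine), mt-Th (358, histidine), mt-Tl1 (268, leucine) and mt-Tc (113, cysteine), with log2 fold changes of 0.23, 0.07, 0.46 and 0.55. Their intervals all spanned 0. Transfer RNAs summed to 0.391% ± 0.076 of mitochondrial reads in shNgb and 0.368% ± 0.015 in shVec (exact permutation p = 0.8). Transfer RNAs are short and carry no poly(A) tail, and their level here is no measure of their amount either.

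The nuclear genes that copy, transcribe and translate mitochondrial DNA were also without a call by edgeR. Of the 16 tested genes for transcription and its regulators, 9 were higher and 7 lower in shNgb by sign, the median log2 fold change was 0.00 and none was at an unadjusted p under 0.05. Tefm, the elongation factor of the mitochondrial polymerase, stood at 15.4 ± 1.02 CPM in shNgb and 18.3 ± 1.21 in shVec (SD, n = 3), a log2 fold change of -0.25. Mterf4, which helps assemble the mitochondrial ribosome, stood at 15.1 ± 0.64 and 12.4 ± 1.43 (0.28), and neither overlapped between groups. In this list 2 genes were higher and 1 lower without overlap, where the shares over all genes were 3.67% and 3.43%. Nrf1, a transcription factor for nuclear respiratory genes, stood at 58.997 ± 4.17 and 65.6 ± 2.37 (-0.15). In the 17 replication and maintenance genes the median was -0.01, with 8 positive and 9 negative. Tk2, the mitochondrial thymidine kinase, stood at 20.7 ± 1.97 and 23.3 ± 1.15 there.

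RNA processing, modification and decay genes had 10 positive and 22 negative members of 32, with a median of -0.04 and no member at an unadjusted p under 0.05. Mtpap, which adds the poly(A) tails of mitochondrial RNA, stood at 26.3 ± 2.20 CPM in shNgb and 30.2 ± 2.04 in shVec. Grsf1, an RNA-binding protein of mitochondrial RNA granules, stood at 193.7 ± 5.32 and 208 ± 7.09, a log2 fold change of -0.10. It was 1 of 3 genes of this list whose groups did not overlap, all lower in shNgb, where the share over all genes was 3.43%. The 16 translation factors split evenly at a median of 0.01, and of the 19 synthetases that charge mitochondrial tRNAs 7 were positive and 12 negative, at -0.02. Lars2, the leucine enzyme that serves mt-Tl1 and mt-Tl2, stood at 18.4 ± 0.27 and 16.1 ± 1.43 without overlap. Of the synthetases 1 was higher and 1 lower without overlap (3.67% and 3.43% of all genes). Of 78 tested proteins of the mitochondrial ribosome 41 were positive and 37 negative, with a median of 0.01, beside 5 proteins higher and 1 lower without overlap (3.67% and 3.43% of all genes). Mrps12, among the 5, stood at 31.9 ± 2.61 and 27.4 ± 1.19, and Mrps16 stood at 34.6 ± 3.35 and 40.5 ± 2.23 with overlap.

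Nuclear subunits of the respiratory chain were also without a call by edgeR. The 37 complex I subunits had a median log2 fold change of 0.01, and 22 of them had a positive value. Ndufa3 was the 1 subunit of the 37 with an unadjusted p under 0.05 (edgeR, 0.0403; adjusted p = 0.9997), where the share over all genes was 2.58%, at 29.7 ± 1.15 CPM in shNgb and 25.1 ± 1.76 in shVec (SD, n = 3). Ndufa12 stood at 13.4, 18.7 and 30.7 CPM in shNgb, against 47.3, 43.2 and 22.96 in shVec, with overlap and a log2 fold change of -0.85 (interval -1.76 to 0.06). Medians were 0.04 in the 4 complex II, 0.04 in the 9 complex III, 0.03 in the 11 complex IV and 0.01 in the 17 ATP synthase genes, against 0.00 over all genes. Per 100 reads of all these nuclear subunits, the tumours held 146, 144 and 130.2 mitochondrial messenger reads in shNgb and 141, 148 and 135 in shVec (exact permutation p = 0.9).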

How the data were processed

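Per the labels' protocols, RNA of each tumour was extracted with Trizol and sequenced from Illumina TruSeq RNA libraries, a kit that selects poly(A) RNA without strand. Per the submitters' processing notes, Bowtie 0.12.2, mm8 and mm10 were used, with no step given for each. The sources used here name neither a counting tool nor its rule for reads with several matches. The authors deposited raw read counts per Ensembl gene, and FPKM values per sample. In the 23 members that every library detected, deposited FPKM was the count over GENCODE gene length times a library factor (largest relative deviation 5.3e-10), so counts alone were used. GENCODE M21 named 54409 of the 54532 IDs.

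Counts were tested with edgeR 4.0.16 (R 4.3.3; default filter, TMM scaling, robust quasi-likelihood F-test, Benjamini-Hochberg adjustment over 15203 genes, threshold 0.05). Log2 fold changes are shNgb over shVec, with standard errors from the F statistic. CPM use TMM-scaled library sizes and are given as mean ± SD. Intervals are for the group difference, set against the spread between tumours. Summed shares were compared by two-sided exact permutation tests (scipy 1.17.1).

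Copies were sought with blastn 2.17.0 in GENCODE M21 transcripts, since no genome was used. Each copy was assigned to its best matching member. DESeq2 1.42.0, limma-voom (limma 3.58.1), other scalings and filters, the replicate block, added copy reads and left-out libraries were alternatives. The pipeline was tested on simulated counts. Named were all messenger and ribosomal RNAs, the 6 transfer RNAs with most reads, copies with at least 100 reads, and from each nuclear list up to 3 genes of smallest p. Outside this rule, the copies and transfer RNAs with few or no reads were named after their values were seen. So were the markers Vim, Cd44, Sox2, Aldh1l1, Msi1, Olig2, Aqp4, Gfap, S100b, Fabp7, Slc1a3, Sox10, Col3a1 and Eno3. Members, lists and tests were chosen with earlier results of these data known. No libraries of a group were duplicates of each other by a chi-square test of their counts.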

Additional observations from a re-analysis of the deposited data

How the results depend on the processing

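No tested member was called under any scaling, filter, tool or left-out library run. At an unadjusted p under 0.05, mt-Nd3 was not among the members without a filter, with DESeq2, with the replicate block, with copy reads added, or without shNgb replicate 2 or 3 or any 1 shVec replicate, and mt-Nd2 was not without shNgb replicate 2 or shVec replicate 1 or 3. In the same runs mt-Tl1 was below 0.05 without shNgb replicate 2, mt-Nd4 without shNgb replicate 3 and mt-Tn without shVec replicate 3. Over all genes the count of calls, 0 by edgeR (392 at an unadjusted p under 0.05), was 3 without a filter beyond 1 read, 5 with DESeq2 and 1 with the replicate block; the cause was not tested. It stayed at 0 when any 1 library was left out (0 to 0). Of 188 log2 fold changes of named members under other settings, 182 kept their sign. The 6 that changed it were near 0: mt-Rnr2 0.0015 and mt-Nd1 0.015 with upper quartile scaling, mt-Nd1 0.0028 without a filter and 0.00023 with the replicate block, and mt-Th -0.063 with limma-voom and -0.018 with the block. Same-numbered tumours deviated from their group means with correlations across genes of 0.26, -0.14 and -0.10, and the labels give no shared source, so the numbers were not treated as pairs; not every tumour correlated best with its own number.

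Leaving out 1 tumour gave log2 fold changes of -0.26 to 0.14 for mt-Rnr1, -0.17 to 0.11 for mt-Rnr2, -0.10 to 0.12 for mt-Nd1, -0.13 to 0.010 for mt-Co1, -0.43 to 0.056 for mt-Co2, -0.27 to 0.15 for mt-Atp6, -0.26 to 0.84 for mt-Co3, -0.050 to 0.084 for mt-Nd5, -0.031 to 0.080 for mt-Nd6, -0.034 to 0.14 for mt-Cytb, -0.053 to 0.24 for mt-Tp, -0.032 to 0.070 for mt-Tl2 and -0.22 to 0.39 for mt-Th. mt-Nd2 (0.16 to 0.25), mt-Nd4 (0.10 to 0.19), mt-Nd3 (-1.13 to -0.69), mt-Nd4l (-0.70 to -0.18), mt-Atp8 (0.22 to 0.79), mt-Ts2 (0.00072 to 0.44), mt-Tl1 (0.24 to 0.71) and mt-Tc (0.22 to 1.03) kept their signs. Differences of shares (shNgb minus shVec) ran from -0.015 to 0.075 percentage points for mitochondrial reads, -0.11 to 0.10 for ribosomal RNA, -0.018 to 0.057 for transfer RNA, -0.47 to 1.31 for complex III and -0.024 to 0.019 for complex V, and from -4.15 to 4.05 reads per 100 nuclear subunit reads. Complex IV (-2.73 to -1.17) and complex I (0.89 to 1.78) kept their signs, as did mt-Nd6. Low counts limit the precision of mt-Nd3, mt-Nd4l, mt-Atp8 and most transfer RNAs, which had 268 reads or fewer over all libraries. Why these counts were low was not tested.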

Other observations

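Gm29216, the copy of the end of mt-Co1, stood at 24.3 CPM in shNgb replicate 1, against 3.76 to 6.30 in the other 5 tumours; it was singled out after its values were seen. None of the other copies on chromosome 1 was highest in that tumour, and Gm28661, Gm28438, Gm10222 and Gm28439 were lowest in it. Gm13341 was highest in shNgb replicate 2, at 4.28 CPM.

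By annotation, the 9 genes of the strand that carries mt-Nd6 (8 of them transfer RNAs) held 1.27% of all mitochondrial reads. The 28 genes annotated to the other strand held 98.7%. The kit does not mark strand and selects poly(A) RNA, which transfer RNAs lack, so this split is no measure of the output of each strand.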
